A study of Rattus norvegicus with 18 samples.

Results

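A set of 10 genes known from epithelial injury and repair was followed across the 6 treatment groups of a rat study of CDK4/6 inhibitors, which asked how these drugs affect the gut: Adm, Plaur, Maff, Timp1, Mmp10, Epha2, Phlda1, Gprc5a, Tnfaip3 and Tsc22d2. They were selected by gene symbol, as the probe sets whose platform annotation gave exactly 1 symbol equal to one of these names. That found 11 probe sets, 2 of them for Plaur, and so 10 of the 14217 genes measured. The genes had been picked with earlier results of the same arrays in view. Which contrast served is not recorded, so the differences from vehicle are taken as used and are described without a test. The name of the group comes from what the genes are known for elsewhere and not from these arrays, and the scrapings were not scored for injury here.

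RNA from mucosal scrapings of the jejunum was hybridised to 18 Affymetrix arrays, 3 for each group. The animals were male Sprague Dawley rats of 6-8 weeks, gavaged once a day. They received abemaciclib at 120 or 36 mg/kg/day, ribociclib at 300 mg/kg/day, palbociclib at 100 or 30 mg/kg/day, or vehicle. Rats of the vehicle group had 0.5% methyl cellulose, which was also the carrier of palbociclib. Abemaciclib and ribociclib were given in hydroxypropyl methylcellulose with Tween 80 in an acidic citrate buffer, so in their comparisons with vehicle the compound and its carrier cannot be told apart. Dosing lasted 4 or 15 days by the design text, and no label ties an array to either. A single abemaciclib array, replicate B of the 120 mg/kg/day group, carries a dose of 100 in its title and was placed by its treatment entry. Replicates carry the letters A to C. No label names the animals behind them. A p-value here thus reflects the scatter of arrays within groups, pooled over the 6 groups, which may be technical.

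All 3 compounds block CDK4 and CDK6, kinases that drive cells into S phase. The 10 genes lie in several connected responses of a stressed epithelium. Growth factor receptors and stress kinases act through AP-1, a dimer of Fos and Jun proteins, and through cAMP response element binding factors, and NF-kB carries inflammatory signals. In the intestine such signals accompany the spreading of epithelial cells over a wound, the remodelling of the matrix below them and the return of barrier function.

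Promoter sequences are shown for the 5 genes that held an AP-1 or a cAMP response element match, since these elements are known links between stress signals and such genes. The window ran from 250 bases before to 50 bases after the annotated start, in RefSeq's GRCr8 build, and 9 of the 10 genes had an entry. The patterns searched were these, taken on both strands: AP-1 as TGANTCA, the cAMP response element (CRE) as TGACGTCA, NF-kB as GGGA, any 4 bases and then CC and the hypoxia response element (HRE) as ACGTG. Capitals mark every match of the 4 patterns. Each sequence runs 5′ to 3′ along the strand of its gene.
Plaur (chr1:89181113-89181412, plus strand): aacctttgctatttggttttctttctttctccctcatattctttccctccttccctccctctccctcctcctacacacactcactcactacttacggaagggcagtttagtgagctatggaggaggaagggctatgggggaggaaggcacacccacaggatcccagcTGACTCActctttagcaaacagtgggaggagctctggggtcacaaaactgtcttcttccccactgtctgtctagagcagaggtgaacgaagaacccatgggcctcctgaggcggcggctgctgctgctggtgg
Mmp10 (chr8:12974457-12974756, plus strand): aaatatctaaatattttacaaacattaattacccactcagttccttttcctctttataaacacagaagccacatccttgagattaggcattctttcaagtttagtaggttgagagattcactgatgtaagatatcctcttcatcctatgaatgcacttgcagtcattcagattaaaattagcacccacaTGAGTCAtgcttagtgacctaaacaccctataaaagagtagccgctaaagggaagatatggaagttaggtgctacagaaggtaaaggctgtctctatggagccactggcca
Tnfaip3 (chr1:15543930-15544229, minus strand): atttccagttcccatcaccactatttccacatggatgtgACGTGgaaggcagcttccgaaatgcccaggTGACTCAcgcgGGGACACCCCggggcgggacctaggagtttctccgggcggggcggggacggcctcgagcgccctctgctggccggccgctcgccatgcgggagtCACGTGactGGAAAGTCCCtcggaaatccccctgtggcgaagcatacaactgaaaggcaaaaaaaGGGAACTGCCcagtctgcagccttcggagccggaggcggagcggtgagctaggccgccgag
Maff (chr7:112792537-112792836, plus strand): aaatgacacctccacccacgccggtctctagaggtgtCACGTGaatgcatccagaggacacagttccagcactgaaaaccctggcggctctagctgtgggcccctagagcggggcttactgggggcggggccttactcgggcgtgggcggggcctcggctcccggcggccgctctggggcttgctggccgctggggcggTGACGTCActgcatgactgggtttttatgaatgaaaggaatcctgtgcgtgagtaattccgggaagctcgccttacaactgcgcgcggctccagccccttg
Epha2 (chr5:158888379-158888678, plus strand): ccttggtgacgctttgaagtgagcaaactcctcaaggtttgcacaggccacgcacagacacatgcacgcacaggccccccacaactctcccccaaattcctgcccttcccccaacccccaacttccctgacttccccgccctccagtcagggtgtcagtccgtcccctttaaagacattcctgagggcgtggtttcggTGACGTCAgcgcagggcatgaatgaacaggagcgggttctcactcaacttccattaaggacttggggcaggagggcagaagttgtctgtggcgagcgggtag
The AP-1 pattern lay in 3 of the 9 promoters, at -83 in Plaur, -61 in Mmp10 and -181 in Tnfaip3, counted from the start site to the first base of the match. Of all 33469 promoters of this length, 7.33% held it. The full CRE occurred in 2 of the 9, at -51 in Maff and -52 in Epha2, against 1.83% of all promoters. NF-kB matches were found in Tnfaip3, at -170, -67 and -11, and in Phlda1, and 19.3% of all promoters held at least 1. The HRE pattern, in Maff and Tnfaip3, was as common, at 19.3%. At a single place in Maff and at one of the places in Tnfaip3 it overlaps its own reverse complement. The windows of Adm, Timp1 and Tsc22d2 held no match. These matches describe the sequence and were not tied to binding of any factor.

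**Figure D1:**
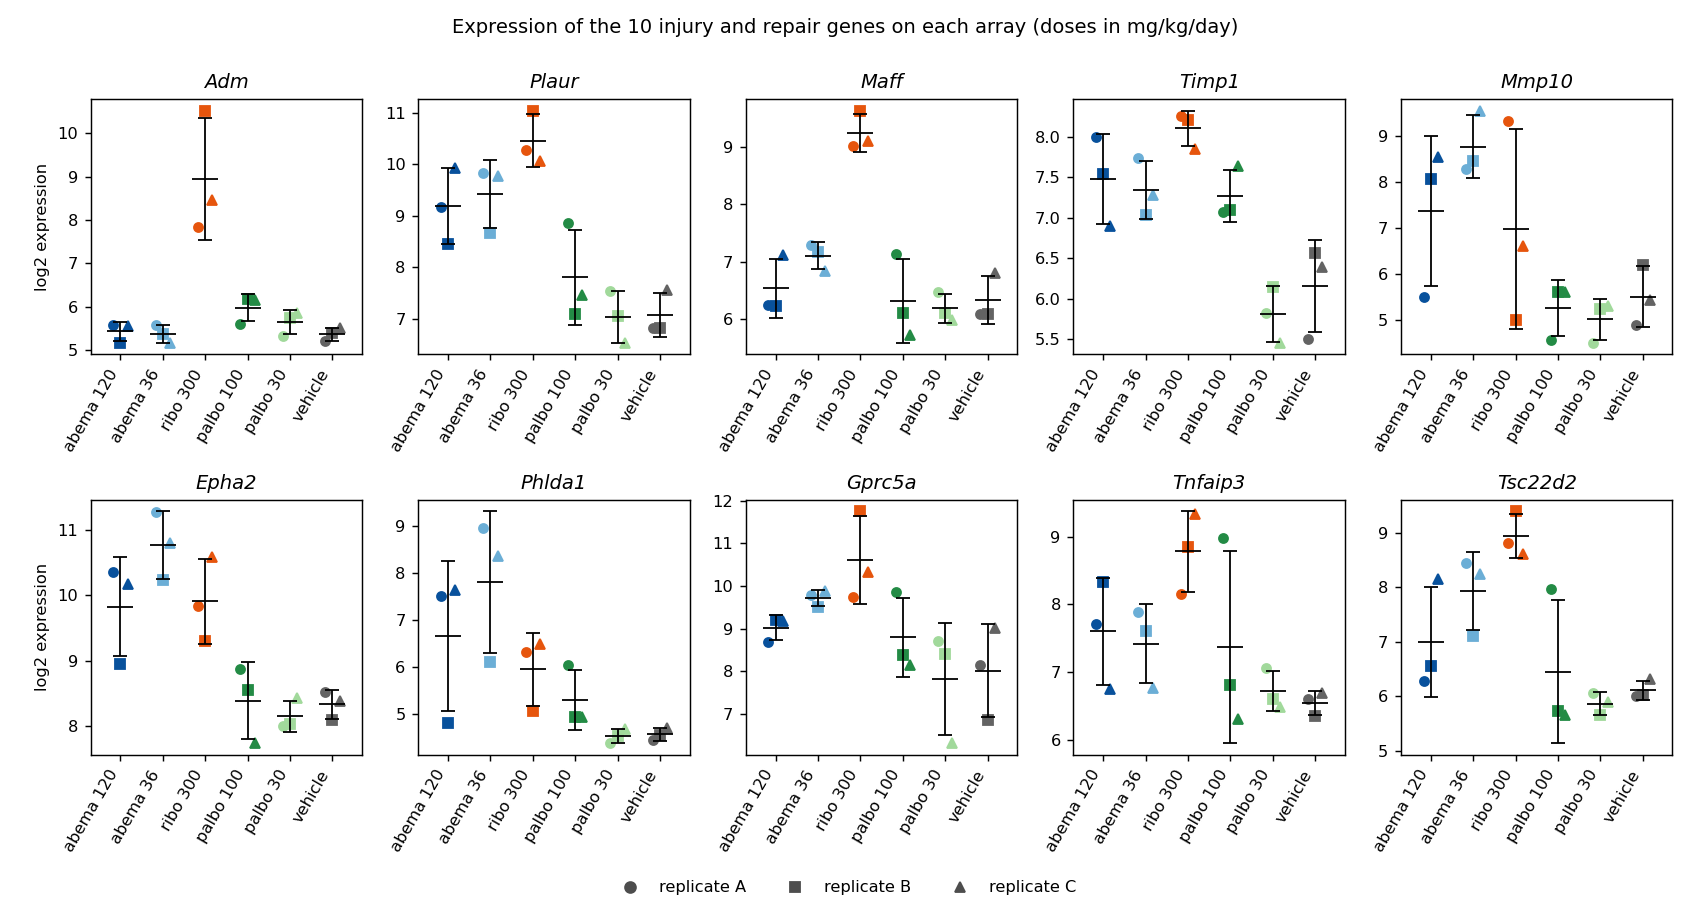
Log2 expression of the 10 genes (vertical axes, a separate scale for each gene) on each of the 18 arrays. Points are arrays, marked by replicate letter, bars are the mean and SD of 3 arrays, and numbers after the drug names are mg/kg/day. Adm and Maff are high on the ribociclib arrays alone, where Adm lies between 7.84 and 10.52 and every other array lies at or below 6.19.

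Levels below are the deposited log2 expression values, for which 1 unit is a doubling. Array medians lay between 5.40 and 5.51, and detection calls were not used, so a level near or below the median is not shown to be above background.

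Adm encodes adrenomedullin, a secreted vasodilator peptide that also protects epithelial and endothelial barriers and is induced by low oxygen. Its log2 values were 5.57, 5.17 and 5.55 with abemaciclib at 120 mg/kg/day and 5.58, 5.37 and 5.17 with abemaciclib at 36 mg/kg/day. Ribociclib arrays read 7.84, 10.52 and 8.47. Palbociclib gave 5.61, 6.19 and 6.15 at 100 mg/kg/day and 5.33, 5.74 and 5.86 at 30 mg/kg/day, and vehicle gave 5.20, 5.39 and 5.51. Ribociclib thus stood apart from all other groups, while the arrays of the other groups lay near the array median and overlapped from each group to the next in rank. The ribociclib mean of 8.94 ± 1.40 exceeded the vehicle mean of 5.37 ± 0.15 (SD, n = 3 each) by 3.58 on the log2 scale (SE 0.45). No fold is given, because the vehicle level lay at the array medians and is not shown to be above background. Array B carried much of that spread, and without it the difference was 2.79.

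Maff, a small Maf transcription factor that pairs with CNC and BACH proteins and is induced by stress, had the same outline. Values were 6.25, 6.23 and 7.12 with abemaciclib at 120 mg/kg/day and 7.29, 7.17 and 6.84 at 36 mg/kg/day. With ribociclib they were 9.02, 9.63 and 9.10. Palbociclib arrays lay between 5.71 and 7.13 at 100 mg/kg/day and between 5.97 and 6.47 at 30 mg/kg/day, and vehicle arrays read 6.08, 6.09 and 6.81. All 3 ribociclib arrays were above every other array, and each remaining group overlapped the next in rank. Unlike for Adm, the abemaciclib 36 arrays lay wholly above vehicle, though narrowly, with a lowest value of 6.84 against a highest vehicle value of 6.81. The differences from vehicle were 0.20 and 0.78 for abemaciclib at 120 and 36 mg/kg/day and 2.92 for ribociclib (SE 0.34 for each), the last being 7.59-fold.

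Plaur, the cell surface receptor for urokinase, focuses plasmin formation at the edge of moving cells. Its brighter probe set read 9.17, 8.46 and 9.93 with abemaciclib at 120 mg/kg/day, 9.83, 8.66 and 9.78 at 36 mg/kg/day and 10.28, 11.04 and 10.06 with ribociclib. Palbociclib at 100 mg/kg/day gave 8.86, 7.10 and 7.46, palbociclib at 30 mg/kg/day gave 7.54, 7.05 and 6.54, and vehicle gave 6.83, 6.82 and 7.56. Every abemaciclib and ribociclib array lay above every vehicle array. Both abemaciclib groups overlapped each other and lay below ribociclib, and palbociclib overlapped vehicle at either dose. The excess over vehicle was 2.11, 2.35 and 3.39 for abemaciclib 120, abemaciclib 36 and ribociclib (SE 0.48). A dimmer second probe set of Plaur, with levels between 4.20 and 5.32, showed smaller differences. Its group means were 4.95, 4.70 and 4.93 in the same 3 groups and 4.29 in vehicle. Abemaciclib 120 and ribociclib differed there by 0.01 (SE 0.17), so the order of these 2 groups is not resolved. All levels of this probe set lay below the array medians and are not shown to be above background.

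Among the matrix genes, Timp1 encodes a secreted inhibitor of matrix metalloproteinases. Its values were 7.99, 7.55 and 6.90 with abemaciclib at 120 mg/kg/day and 7.74, 7.03 and 7.28 at 36 mg/kg/day. Ribociclib arrays read 8.25, 8.21 and 7.86, those of palbociclib at 100 mg/kg/day 7.07, 7.10 and 7.64, those of palbociclib at 30 mg/kg/day 5.82, 6.15 and 5.46, and vehicle 5.51, 6.57 and 6.39. Palbociclib at 100 mg/kg/day cleared all vehicle arrays too, with a difference of 1.11 (SE 0.32). Among the other genes this held for Adm and Phlda1 alone. The differences in abemaciclib 120, abemaciclib 36 and ribociclib were 1.32, 1.19 and 1.95.

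Mmp10, stromelysin 2, is a matrix metalloproteinase made by epithelium at wound edges. Abemaciclib at 120 mg/kg/day gave 5.51, 8.06 and 8.54, and abemaciclib at 36 mg/kg/day gave 8.29, 8.45 and 9.54. Ribociclib arrays scattered over 9.32, 5.0 and 6.61. Palbociclib read 4.56, 5.61 and 5.61 at 100 mg/kg/day and 4.50, 5.23 and 5.30 at 30 mg/kg/day, and vehicle 4.89, 6.19 and 5.44. The abemaciclib 36 arrays alone lay wholly above vehicle, by 3.25 on average (SE 0.86), whereas abemaciclib 120 and ribociclib each had an array within the vehicle range. Leaving out ribociclib array A lowered the ribociclib excess over vehicle to 0.30, against 1.47 with all arrays.

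Mean levels of 8 fibroblast markers varied on the same arrays. Over replicates A, B and C they were 5.02, 7.67 and 6.00 with abemaciclib at 120 mg/kg/day, 5.85, 7.70 and 6.92 at 36 mg/kg/day and 8.28, 5.78 and 6.83 with ribociclib, and vehicle arrays lay between 6.11 and 7.05. In each of the 3 groups the array with the lowest Mmp10 value had the lowest fibroblast level. That array was also lowest for the smooth muscle, endothelial, and macrophage and dendritic cell marker means, so the match is not particular to fibroblasts. The array with the highest Mmp10 value had the highest fibroblast level with ribociclib, but not at either abemaciclib dose, where Mmp10 was highest in array C and the fibroblast level in array B. None of the 8 markers passed the test against vehicle in these 3 groups, and the part of fibroblast content in the Mmp10 values was not tested. In bulk RNA, fewer cells of a type and less RNA per cell cannot be told apart.

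Epha2 and Phlda1, which act in receptor signalling, were also highest with abemaciclib at 36 mg/kg/day. Epha2 is a receptor tyrosine kinase for ephrin-A ligands that acts in epithelial migration and junctions. It read 10.35, 8.95 and 10.17 with abemaciclib at 120 mg/kg/day, 11.27, 10.23 and 10.80 at 36 mg/kg/day and 9.84, 9.29 and 10.59 with ribociclib. The palbociclib arrays lay between 7.74 and 8.88 at 100 mg/kg/day and between 8.00 and 8.42 at 30 mg/kg/day, and vehicle read 8.52, 8.08 and 8.39. All 9 abemaciclib and ribociclib arrays were above all vehicle arrays, by 1.49, 2.43 and 1.58 on average (SE 0.40), and those 3 groups overlapped in order. Palbociclib differed from vehicle by 0.06 and -0.18 at 100 and 30 mg/kg/day.

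Phlda1, a pleckstrin homology-like protein induced by receptor tyrosine kinase and ERK signalling, spread more. Its values were 7.52, 4.81 and 7.64 with abemaciclib at 120 mg/kg/day, 8.97, 6.11 and 8.36 at 36 mg/kg/day, 6.32, 5.07 and 6.49 with ribociclib, and 6.05, 4.94 and 4.94 with palbociclib at 100 mg/kg/day. Palbociclib at 30 mg/kg/day gave 4.38, 4.54 and 4.68 and vehicle gave 4.44, 4.57 and 4.71, below the array medians. Replicate B was lowest in each of the abemaciclib and ribociclib groups. The differences from vehicle were 2.08, 3.24 and 1.38 for abemaciclib 120, abemaciclib 36 and ribociclib (SE 0.70). Without array B of abemaciclib 120 that group's difference was 3.0.

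Gprc5a, an orphan receptor of the RAIG family that is induced by retinoic acid, read 8.68, 9.21 and 9.18 with abemaciclib at 120 mg/kg/day, 9.78, 9.50 and 9.88 at 36 mg/kg/day and 9.75, 11.76 and 10.34 with ribociclib. Palbociclib gave 9.86, 8.38 and 8.14 at 100 mg/kg/day and 8.71, 8.41 and 6.31 at 30 mg/kg/day, and vehicle gave 8.16, 6.87 and 9.03. Of the 10 genes it had the widest spread within vehicle, with an SD of 1.09. Abemaciclib 36 and ribociclib cleared the vehicle range, abemaciclib 120 did not. The differences were 1.01, 1.70 and 2.60 (SE 0.65).

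Tnfaip3, known as A20, is an NF-kB target whose product shuts the pathway off by editing ubiquitin chains. Its arrays read 7.72, 8.33 and 6.75 with abemaciclib at 120 mg/kg/day, 7.89, 7.61 and 6.76 at 36 mg/kg/day and 8.16, 8.85 and 9.34 with ribociclib. Those of palbociclib at 100 mg/kg/day were 8.98, 6.81 and 6.31, those at 30 mg/kg/day 7.06, 6.61 and 6.49, and those of vehicle 6.60, 6.35 and 6.69. The lowest abemaciclib arrays lay just above the highest vehicle array. Differences from vehicle were 1.06, 0.88 and 2.24 for abemaciclib 120, abemaciclib 36 and ribociclib (SE 0.55).

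Tsc22d2, a leucine zipper protein of the TSC22 family linked to osmotic stress, read 6.27, 6.56 and 8.16 with abemaciclib at 120 mg/kg/day and 8.44, 7.11 and 8.24 at 36 mg/kg/day. Ribociclib gave 8.80, 9.39 and 8.61, palbociclib 7.96, 5.73 and 5.66 at 100 mg/kg/day and 6.06, 5.65 and 5.89 at 30 mg/kg/day, and vehicle 6.01, 6.02 and 6.32. Ribociclib was above every other array, the abemaciclib 36 arrays all cleared vehicle, and 1 abemaciclib 120 array lay within the vehicle range. The differences from vehicle were 0.88, 1.82 and 2.82 for abemaciclib 120, abemaciclib 36 and ribociclib (SE 0.55).

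**Figure D2:**
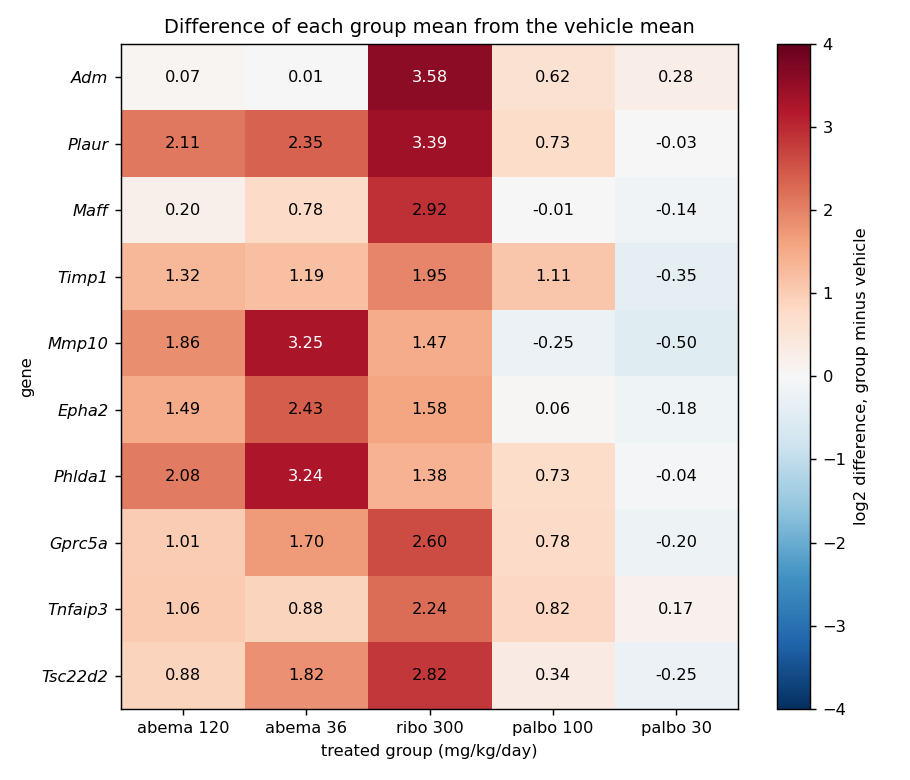
Difference of each group mean from the vehicle mean on the log2 scale (colour, with the value printed), for the 10 genes in rows and the 5 treated groups in columns, each from 3 arrays. Adm and Maff are strong in the ribociclib column alone, Mmp10, Epha2 and Phlda1 are strongest in the abemaciclib 36 column, and the palbociclib 30 column runs from -0.50 to 0.28.

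Ribociclib was the highest of the 6 groups for Adm, Plaur, Maff, Timp1, Gprc5a, Tnfaip3 and Tsc22d2, and abemaciclib at 36 mg/kg/day for Mmp10, Epha2 and Phlda1. The ribociclib arrays did not overlap the next group for Adm, Plaur, Maff and Tsc22d2, and for the other 6 genes the top group overlapped its neighbour. For Plaur, the rank and the lack of overlap hold for the brighter probe set alone, which stands for the gene below. The median difference from vehicle over the 10 genes was 1.19 with abemaciclib 120, 1.76 with abemaciclib 36, 2.42 with ribociclib, 0.67 with palbociclib 100 and -0.16 with palbociclib 30. Over all 14217 genes these medians lay between -0.03 and 0.01. All these comparisons share the vehicle arrays.

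Counts of genes past an adjusted p of 0.05 in limma, with Benjamini-Hochberg adjustment over all genes, are given as a description, since these contrasts may have served to pick the genes. With abemaciclib 120 they were 3 of 10, Plaur, Timp1 and Epha2, where 9.6% of all genes were called higher and 18% in either direction. Without array A of that group only Plaur was left. With abemaciclib 36 they were 3 of 10, Plaur, Epha2 and Phlda1, where 0.499% of all genes were called higher and 2.08% in all. The share in all was 0.324% without array A of the group and 3.73% without array B. That count was 1 without array A or C of the group or without vehicle array A or B, and 5 without array B of the group. With ribociclib they were 8 of 10, all but Mmp10 and Phlda1, where 0.999% of all genes were called higher and 3.73% in all, or 0.844% in all without vehicle array C and 9.26% without ribociclib array A. The count of the 10 was 5 without vehicle array A or C or ribociclib array C, and 4 without vehicle array B. A fit with the 6 arrays of these 2 groups alone called 3, Plaur, Maff and Tsc22d2, and 29 of all genes, and a fit with RNA quality as a covariate (the 3′ over 5′ beta-actin signal) called 6, without Gprc5a and Tnfaip3. Arrays of the 2 groups did not overlap for 5 genes with abemaciclib 120, 9 with abemaciclib 36, 9 with ribociclib and 3 with palbociclib 100, where 18.6%, 7.95%, 10.4% and 7.46% of all genes lay wholly above vehicle.

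None of the 10 was called with palbociclib at 100 or 30 mg/kg/day, where limma called 0.0% of all genes at each dose. At an unadjusted p under 0.05 these contrasts held 1 and 0 of the 10 genes, and 1023 and 357 of all genes. The higher dose was uneven between arrays. Array A was the highest of its group for 7 of the 10 genes, with a median 1.19 above the vehicle mean, against 0.24 and 0.11 for arrays B and C. Without it, Tnfaip3 differed from vehicle by 0.02 and Tsc22d2 by -0.42, against 0.82 and 0.34 with all arrays.

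**Figure D3:**
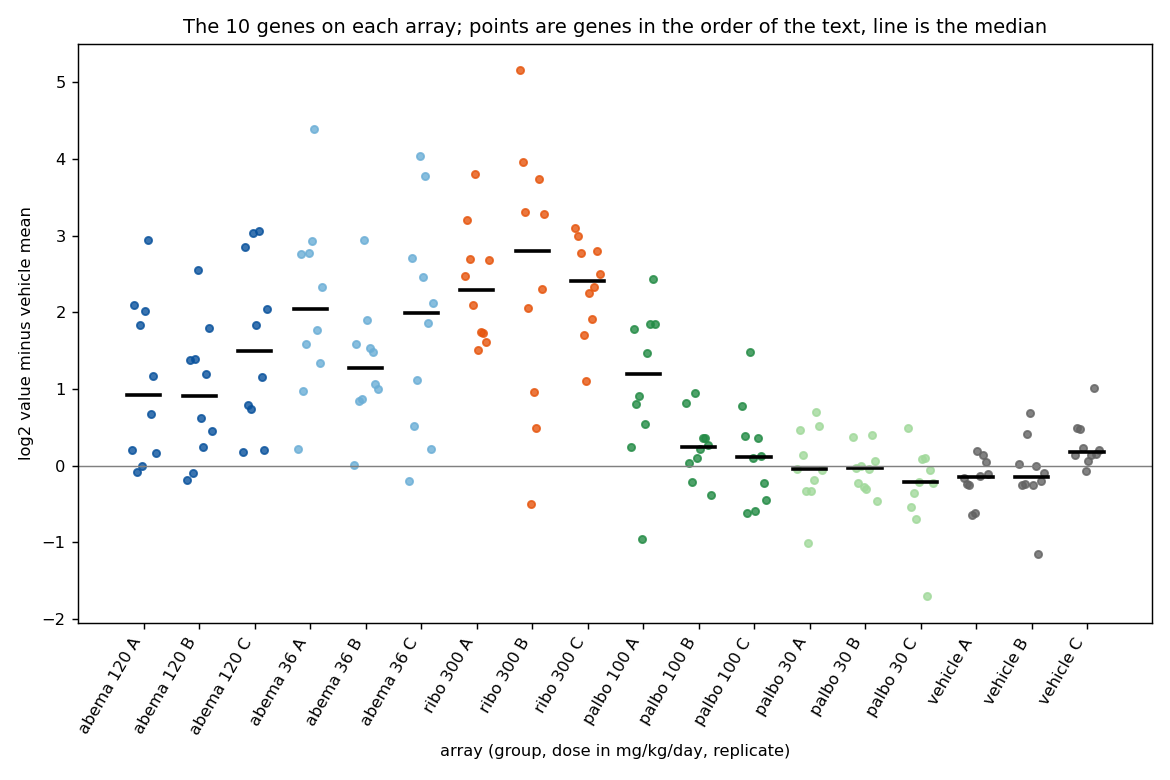
Log2 value minus the vehicle mean for the 10 genes on each array, with a point for each gene, in the order Adm to Tsc22d2 from left to right, and a line at the median. Medians lie between 2.29 and 2.79 on the ribociclib arrays and between 1.27 and 2.05 on those of abemaciclib 36, and palbociclib 100 array A (1.19) stands above arrays B and C of its group.

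Replicates of a group also differed in the abemaciclib arms. At 36 mg/kg/day array A was highest for 8 of the 10 genes and array B lowest for 6, with medians of 2.05 and 1.27 above the vehicle mean. At 120 mg/kg/day array C was highest for 5 genes. Vehicle array C was highest of its group for 7 genes, by less, with a median of 0.17 above the vehicle mean.

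The contrast of abemaciclib with ribociclib takes the difference of 2 treated groups, and both drugs were given in the same carrier. Vehicle and palbociclib arrays entered it through the shared estimate of the spread. The doses differ in mg/kg/day, so it compares the groups as dosed and not the molecules at a matched exposure. Earlier results of these arrays were known when the genes were picked, which limits these tests too. Abemaciclib at 120 mg/kg/day was lower than ribociclib in 3 of the 10 genes, Adm, Maff and Tsc22d2, where 10.0% of all genes were called lower and 27.2% in either direction. Adm averaged 5.43 ± 0.22 with abemaciclib and 8.94 ± 1.40 with ribociclib (SD, n = 3 each). The log2 difference was -3.51 (95% interval -4.46 to -2.57, limma adjusted p = 0.000209). In the groups other than ribociclib the SD of Adm was 0.15 to 0.32. The Adm intervals and SE use 1 spread shared by all groups, so they are tighter than the ribociclib scatter alone would give. Maff averaged 6.53 ± 0.51 and 9.25 ± 0.33, a difference of -2.72 (interval -3.44 to -2.00, limma adjusted p = 0.000188). In both genes all abemaciclib arrays lay below all ribociclib arrays, and all 15 alternatives kept the call.

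Tsc22d2 was less secure. It averaged 7.0 ± 1.01 with abemaciclib 120 and 8.94 ± 0.41 with ribociclib, a difference of -1.94 (interval -3.11 to -0.77, limma adjusted p = 0.0170). The call was lost without array A or B of abemaciclib (limma adjusted p = 0.0909 and 0.0513) or array B of ribociclib (0.0652). It was also lost with RNA quality as a covariate (0.231). That measure, the log2 excess of the 3′ over the 5′ beta-actin control probe set, was 0.86 to 1.05 on the abemaciclib 120 arrays, 0.40, 0.40 and 0.90 with ribociclib and 0.57 to 0.79 with vehicle.

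For the other 7 genes the contrast of abemaciclib 120 with ribociclib did not pass. Plaur (-1.27, limma adjusted p = 0.0570), Gprc5a (-1.59, 0.0801), Tnfaip3 (-1.18, 0.120) and Timp1 (-0.63, 0.150) had lower means with abemaciclib. Plaur passed without abemaciclib 120 array C (limma adjusted p = 0.0330) and Gprc5a without ribociclib array A (0.0374). The intervals of Mmp10 (-1.44 to 2.22), Epha2 (-0.92 to 0.76) and Phlda1 (-0.79 to 2.19) spanned 0 and do not show that the groups were alike. Arrays did not overlap in 5 genes, Adm, Plaur, Maff, Gprc5a and Tsc22d2, and 17.4% of all genes had abemaciclib 120 wholly below ribociclib. The result depends on how arrays are scaled: with each array centred on its median, 7 of the 10 were called lower, and so were 37.0% of all genes.

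Abemaciclib at 36 mg/kg/day was lower than ribociclib in 2 of the 10 genes, Adm and Maff, where 0.225% of all genes were called lower and 0.38% in either direction. Without abemaciclib 36 array B the share in either direction was 6.77%, and without ribociclib array A it was 10.7%. The Adm means were 5.37 ± 0.21 with abemaciclib and 8.94 ± 1.40 with ribociclib (SD, n = 3 each), a difference of -3.57 (interval -4.52 to -2.62, limma adjusted p = 0.00373). Those of Maff were 7.10 ± 0.23 and 9.25 ± 0.33, a difference of -2.15 (interval -2.87 to -1.43, limma adjusted p = 0.0123). A fit with these 6 arrays alone called neither (limma adjusted p = 0.457 for Adm and 0.177 for Maff), and none of all genes. Maff was also lost without abemaciclib 36 array C (0.0784) or ribociclib array B (0.0561), so the count was then 1.

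Phlda1, Mmp10 and Epha2 leaned the other way without passing. Phlda1 was 1.86 higher with abemaciclib 36 (interval 0.37 to 3.35, limma adjusted p = 0.189), Mmp10 1.78 higher (-0.05 to 3.61, 0.290) and Epha2 0.86 higher (0.02 to 1.70, 0.272). Phlda1 passed without abemaciclib 36 array B (limma adjusted p = 0.0250) and Mmp10 without ribociclib array A (0.0204). The other 5 genes had lower means with abemaciclib 36, by -0.76 to -1.37, and did not pass. Arrays were wholly lower with abemaciclib 36 in 6 genes, Adm, Plaur, Maff, Timp1, Tnfaip3 and Tsc22d2, against 6.32% of all genes.

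**Figure D4:**
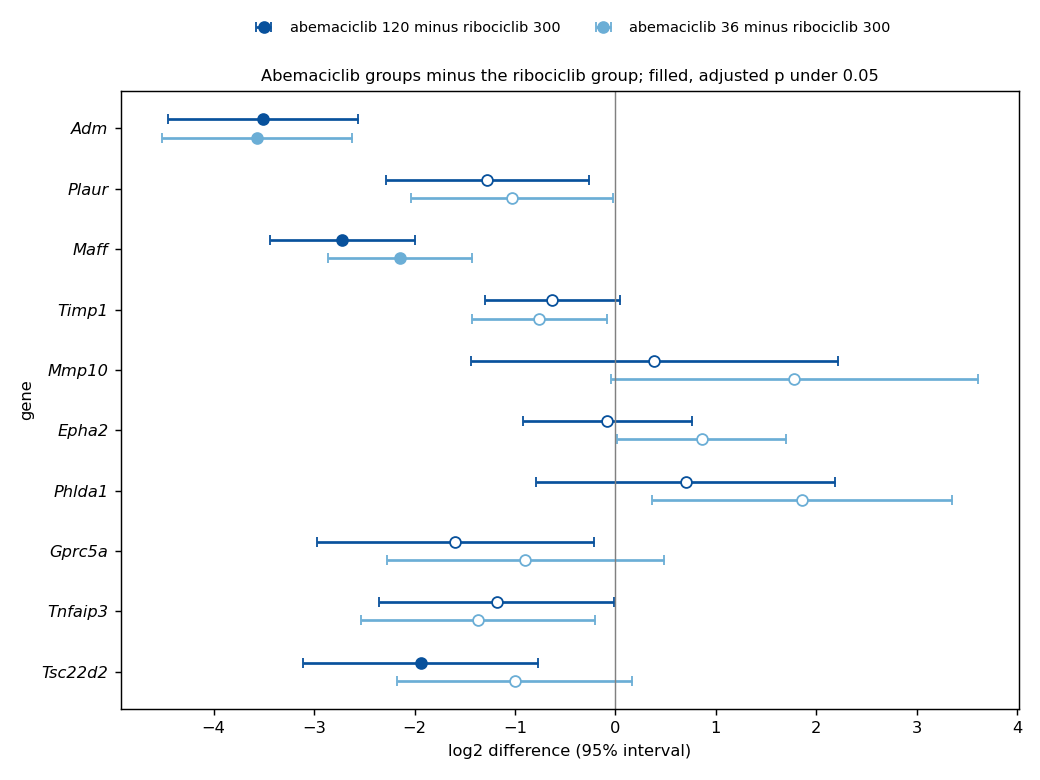
Log2 differences of abemaciclib at 120 (dark) and 36 mg/kg/day (light) from ribociclib at 300 mg/kg/day, with 95% intervals from limma, 3 arrays a group. Filled points have an adjusted p under 0.05. The intervals of Adm, Maff, Plaur and Tnfaip3 lie wholly below 0 at both doses, though Plaur and Tnfaip3 were not called. The points of Phlda1 and Mmp10 lie on the positive side, and of their intervals only that of Phlda1 at 36 mg/kg/day clears 0.

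Between doses of one drug no gene of the 10 passed. For abemaciclib 120 against 36, limma called 7.59% of all genes and 0 of the 10, and 1 of the 10 had an unadjusted p under 0.05, against 2981 of all genes. That was Epha2, named after its value was seen, with means of 9.82 ± 0.76 at 120 and 10.76 ± 0.52 at 36 mg/kg/day (SD, n = 3 each), a difference of -0.94 (interval -1.78 to -0.10, limma adjusted p = 0.181). Means were lower at the higher dose in 7 of the 10 genes, all but Adm, Timp1 and Tnfaip3, whose differences were 0.06, 0.13 and 0.18. Those of these 3 genes, and of Plaur (-0.24) and Gprc5a (-0.70), changed sign under at least 1 other setting. For palbociclib 100 against 30, limma called 0.0% of all genes and 0 of the 10, with 619 of all genes and 1 of the 10 at an unadjusted p under 0.05. Timp1 was that gene, named after its value was seen, at 7.27 ± 0.32 against 5.81 ± 0.35, with no overlap between arrays and a difference of 1.46 (interval 0.79 to 2.13, limma adjusted p = 0.557). The dose steps of the 2 drugs, compared by an interaction term, did not differ in any of the 10 past the threshold, where 0.352% of all genes did, and Timp1 had the lowest limma adjusted p, 0.202.

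Genes known to act with the 10 were taken as lists by role. These lists and the marker lists below were also chosen with earlier results of these arrays known, which limits their tests. Of the adrenomedullin receptor parts and relatives, 6 measured, 0 passed against vehicle with abemaciclib 120, abemaciclib 36 or ribociclib in limma. Ramp1, a receptor partner, averaged 11.35, 11.18 and 10.77 in those groups and 10.95 with vehicle. Nor did any of 9 genes of plasminogen activation pass in these 3 contrasts. Itgb3, an integrin subunit that binds vitronectin, differed by -1.09, 0.12 and -0.0036, with limma adjusted p from 0.0726 to 0.997. Plat, tissue plasminogen activator, differed by 0.60, 0.94 and 1.24, with limma adjusted p from 0.261 to 0.583.

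Mafk, another small Maf gene, rose in all 3 groups, by 0.45 with abemaciclib 120 (limma adjusted p = 0.0350), 1.14 with abemaciclib 36 (0.00131) and 1.24 with ribociclib (0.000547). Its mean was 10.34, 11.04 and 11.14 in these groups and 9.90 with vehicle. The abemaciclib 120 rise was not called when arrays were centred on their median, nor with the RNA quality covariate. Bach1, a repressor that pairs with small Maf proteins, rose with ribociclib by 1.00 (limma adjusted p = 0.0421), and differed by -0.11 and -0.03 in the abemaciclib groups. Of the 7 measured genes of this list, 1, 1 and 2 rose in the 3 groups and none fell.

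Of 15 other metalloproteinases and inhibitors, 1 rose and 1 fell with abemaciclib 120, and none passed with abemaciclib 36 or ribociclib. Mmp9, a gelatinase made largely by leukocytes, fell by 2.14 (limma adjusted p = 0.00118), with 3.97 in abemaciclib 120 against 6.11 in vehicle. Mmp15, a membrane-bound metalloproteinase, rose by 0.97 (0.0205).

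The ephrin ligands Efna1 and Efna4 were lower in the abemaciclib groups, where the receptor gene Epha2 was higher. Epha2 was also higher with ribociclib, by 1.58, where neither ligand passed against vehicle. Efna1, which encodes a ligand of Epha2, fell in the abemaciclib groups, to 8.74 at 120 and 8.50 at 36 mg/kg/day, against 10.37 with vehicle (limma adjusted p = 0.00326 and 0.0109), and was 10.36 with ribociclib. The difference of abemaciclib from ribociclib itself passed, at -1.62 for 120 (limma adjusted p = 0.00301) and -1.86 for 36 mg/kg/day (0.0264). Efna4 also fell in both, by 0.90 and 1.10 (0.0246 and 0.0399). Ephb3, an Eph receptor of crypt cells, rose by 1.82 with abemaciclib 120 (0.0233). In all, 2 of 13 rose and 2 fell with abemaciclib 120, 2 fell with abemaciclib 36 and none passed with ribociclib.

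Among 7 paralogues of Phlda1, Gprc5a and Tsc22d2, Tsc22d3 alone passed against vehicle. This glucocorticoid-induced gene fell with abemaciclib 120 to 8.13, against 10.33 with vehicle (limma adjusted p = 0.00588).

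In the NF-kB feedback list, 23 genes were measured. With abemaciclib 120 none rose and 2 fell, Birc2 by 0.87 (limma adjusted p = 0.0153) and Cyld, a deubiquitinase that like Tnfaip3 restrains the pathway, by 1.04 (0.0185). With ribociclib 1 rose, the inhibitor Nfkbib, by 1.02 (0.0298). None passed with abemaciclib 36.

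Of 12 EGF family ligands and receptors, the receptors Erbb2 and Erbb3 fell with abemaciclib 120, by 1.01 and 1.26 (limma adjusted p = 0.0428 and 0.0436), and Erbb2 by 1.58 with abemaciclib 36 (0.0204). None passed with ribociclib. The EGF list median was 0.17, 0.17 and 0.11 in abemaciclib 120, abemaciclib 36 and ribociclib. Its ligand Areg, named after its value was seen, was higher by 1.52, 2.39 and 2.10 without passing. Of 10 AP-1 genes, Batf and Batf3 fell with abemaciclib 120, by 0.78 and 0.74 (0.00349 and 0.0452), and Fosl2 rose with ribociclib by 1.17 (0.0249). The median of this list was -0.30, 0.05 and 1.08 in abemaciclib 120, abemaciclib 36 and ribociclib.

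Of 18 feedback genes of MAPK and stress signalling, 4 rose with abemaciclib 120, 3 with abemaciclib 36 and 4 with ribociclib, and none fell. Klf10 rose in all 3, by 0.88, 1.37 and 1.17 (limma adjusted p = 0.00337, 0.00188 and 0.00408). Spry1 and Spry2, inhibitors of receptor tyrosine kinase signalling, rose in the abemaciclib groups, Spry1 by 1.37 and 1.04 (0.000391 and 0.0183) and Spry2 by 1.37 and 1.88 (0.0247 and 0.0218). Dusp6, an ERK phosphatase, rose with ribociclib by 2.09 (0.00523).

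Adm belongs to the genes induced by low oxygen, and 19 others of that kind were measured. Of these 1 rose and 1 fell with ribociclib, Ddit4 by 1.71 (limma adjusted p = 0.0182) and Egln1, a sensor of oxygen, by -0.82 (0.0140). With abemaciclib 120 only Bnip3l passed, by -1.08 (0.000364), and none passed with abemaciclib 36.

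Of 23 genes of regenerating epithelium, 3 rose and 3 fell with abemaciclib 120, 1 rose with abemaciclib 36 and 2 rose with ribociclib. The tight junction gene Cldn4 rose in all 3, by 0.93, 1.12 and 1.29 (limma adjusted p = 0.0254, 0.0425 and 0.0174). Ccn2 rose by 1.79 with ribociclib (0.0467), and with abemaciclib 120 Cd44 rose by 0.67 (0.0239) and Anxa3 fell by 1.46 (0.0104). The list of repair peptides and defence genes, 15 measured, passed in abemaciclib 120 alone, with 3 higher and 2 lower. There Duox2, an oxidase of the apical membrane, rose by 2.72 (0.00130), the siderophore binder Lcn2 by 1.55 (0.00151), and the lectin Reg3b fell by 2.64 (0.00706).

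Against ribociclib instead of vehicle, abemaciclib 120 had 9 of the 23 NF-kB genes called lower, 7 of the 18 MAPK and stress feedback genes, 4 of the 10 AP-1 genes, 5 of the 19 genes induced by low oxygen and 2 of the 6 of the adrenomedullin list, where 10.0% of all genes were called lower. That share was 37.0% with arrays centred on their median and 3.72% with the RNA quality covariate. The list counts against ribociclib were not repeated under other settings. The genes named in this paragraph were chosen after their values were seen. In the NF-kB list the chemokine Ccl20 averaged 9.26 with abemaciclib 120 and 11.86 with ribociclib (limma adjusted p = 0.00530), and the inhibitor Nfkbia 10.88 and 11.85 (0.0330). The AP-1 genes were Fosl2, Fosb, Jun and Atf3, with Fosb lower by -3.44 (0.00859). Of the low-oxygen genes, Bnip3l, Pfkfb4, Vegfa, P4ha1 and Ddit4 were lower, Vegfa by -1.64 (0.0115), and Egln1 was higher. Ackr3, an atypical receptor that takes up adrenomedullin, was lower by -1.69 (0.0121), and Ramp3 was the other of its list. Spry1 was the 1 MAPK gene that was higher.

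In the remaining lists, the counts higher and lower were 0 and 2 of 7 small Maf genes (Mafk and Bach1), 1 and 2 of 15 metalloproteinases and inhibitors (Mmp14 higher, Mmp9 and Mmp19 lower), 2 and 1 of 13 Eph genes (Ephb4 and Efnb1 higher, Efna1 lower) and 1 and 0 of 9 plasminogen genes (Lrp1). They were 0 and 1 of 7 paralogues (Tsc22d3), 0 and 1 of 12 EGF family genes (Egfr), 3 and 3 of 23 genes of regenerating epithelium (Cd44, Krt19 and Krt7 higher, Il11, Krt23 and Ankrd1 lower) and 2 and 2 of 15 repair and defence genes (Lcn2 and Duox2 higher, Reg3b and Reg3g lower). For abemaciclib 36 against ribociclib, Ackr3 and Efna1 were the only genes of these lists that passed, both lower, where 0.38% of all genes were called.

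No gene of any of these lists passed with palbociclib. The list counts against vehicle were repeated under other settings for abemaciclib 120 alone. Calls of list genes with abemaciclib 36 or ribociclib are thus not shown to be stable. For ribociclib against vehicle, 531 of all genes were called in the full fit and 29 with only the groups compared. The counts against vehicle stand beside 18%, 2.08% and 3.73% of all genes called in either direction in the abemaciclib 120, abemaciclib 36 and ribociclib contrasts. By direction, 9.6%, 0.499% and 0.999% of all genes were called higher and 8.41%, 1.58% and 2.74% lower.

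The 9 enterocyte markers of this mucosal tissue averaged 11.86 to 12.25 with abemaciclib 120, 12.52 to 13.04 with abemaciclib 36, 12.41 to 12.93 with ribociclib and 12.60 to 13.04 with vehicle. All abemaciclib 120 arrays were thus below all vehicle arrays, and 2 of the 9 fell. Among them Vil1 (13.2 to 13.6) and Fabp2 (13.7 to 14.1) were steady over the 18 arrays, whereas Alpi was 9.95 to 11.32 with abemaciclib 120, 9.61 to 13.02 with ribociclib and 11.86 to 12.66 with vehicle. The mean of 3 ileal markers was 10.76 to 11.59 with abemaciclib 120, 7.35 to 10.08 with abemaciclib 36, 9.43 to 11.85 with ribociclib and 7.88 to 8.97 with vehicle, and 2, 0 and 0 of the 3 passed. The mean of 8 crypt and cycling markers was 7.41 to 8.04 with abemaciclib 120, against 5.10 to 5.74 with vehicle, and 7 of the 8 rose. It was 5.36 to 6.52 with abemaciclib 36 and 4.56 to 6.28 with ribociclib, where none of the 8 passed. Proximal enterocyte markers, 5 in number, averaged 6.41 to 7.58 with ribociclib and 7.34 to 8.84 with vehicle, with a median difference of -1.57 and 1 of the 5 lower. Smooth muscle markers, 8 in number, averaged 5.96 to 7.43 with ribociclib, wholly above vehicle at 5.53 to 5.83, though none of the 8 passed. Goblet cell markers, 7 in number, averaged 13.16 to 13.37 with abemaciclib 120 and 12.42 to 12.73 with vehicle, and 1 rose and 1 fell. T and NK cell markers, 8 in number, averaged 5.35 to 6.28 with abemaciclib 120, 7.05 to 7.38 with abemaciclib 36, 6.38 to 8.07 with ribociclib and 8.45 to 8.83 with vehicle, and 7, 4 and 4 of them fell. Macrophage and dendritic cell markers, 8 in number, averaged 4.85 to 5.54, 6.48 to 6.70 and 5.43 to 6.06 in those groups and 6.04 to 6.62 with vehicle, and 5, 0 and 1 of them fell. The mean of 6 neutrophil markers lay between 4.07 and 4.35 on all arrays, below the array medians, with 0 passing against vehicle. Endothelial markers, 7 in number, averaged 5.10 to 5.84 with ribociclib and 5.09 to 5.42 with vehicle, with 0 passing there. Of 6 enteroendocrine markers, 1 fell with abemaciclib 120, and 1 rose with abemaciclib 36 and with ribociclib. None of the 4 B and plasma cell markers or the 7 mast cell markers passed against vehicle. The part of cell content in the levels of the 10 genes was not tested.

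Genes with the most similar profile were ranked by the mean absolute difference over the 18 arrays between log2 values taken relative to the vehicle mean. This is a description, and the arrays share their groups and vehicle. The 10 genes themselves were left out of these ranks, and pairs among them follow at the end. For Adm the nearest genes outside the 10 were Dnmt3b (0.50), Rnf223 (0.51) and Gjb5 (0.57), which differed from vehicle by 2.09, 1.77 and 1.60 with ribociclib. For Plaur they were the EGF receptor ligand Areg (0.59), the stress phosphatase subunit Ppp1r15a (0.59) and Pvr (0.65). Maff was closest to Snrk (0.43), Trib1 (0.45) and Vps37b (0.45), Timp1 to Ppp1r15a (0.43), Zfand2a (0.46) and Vps37b (0.47), and Mmp10 to Ifitm3 (0.75), Fabp4 (0.78) and Gja1 (0.82). Epha2 lay nearest to Slc25a25 (0.42), Areg (0.46) and Ctrc (0.47), and Phlda1 to Slc25a25 (0.51), Plscr2 (0.62) and the AP-1 gene Fosl1 (0.63). Gprc5a was nearest to Dusp6 (0.52), Foxo3 (0.57) and Cldn4 (0.58), Tnfaip3 to Ston2 (0.42), Arid5b (0.44) and Foxo3 (0.44), and Tsc22d2 to Trib1 (0.48), Noct (0.49) and Ppp1r15a (0.50). Within the 10, the closest pairs were Maff with Tsc22d2 (0.44), Epha2 with Phlda1 (0.55) and Plaur with Tsc22d2 (0.56). Tsc22d2 was thus nearer to Plaur than Areg was, Maff was nearer to Tsc22d2 than Trib1 was, and for Maff only Snrk lay nearer than Tsc22d2.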

How the data were processed

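The authors deposited log2 expression values for each probe set on each array, and these were used unchanged. The submitters' processing notes name Transcriptome Analysis Console, RMA and Affymetrix Expression Console, and settings are not given in the sources used here. RMA as usually run equalises signal between arrays, so a change in total RNA per cell would not be seen. Of 31099 probe sets, 57 were controls, 20826 had 1 gene symbol, 436 had several and 9780 were unnamed. Each gene was taken as its probe set with the highest mean, which gave 14217 genes. No arrays held identical values (0 pairs), and array pairs correlated at 0.918 to 0.993.

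Arrays were grouped by treatment label. limma 3.58.1 in R 4.3.3 (lmFit, eBayes with an intensity trend) was fitted over all 18 arrays with 1 mean per group, with two-sided p-values adjusted by Benjamini-Hochberg over all genes of a comparison and a threshold of 0.05. Intervals are 95% intervals from that fit. The fit was also run on simulated data with independent arrays and the same spread in every group. That run cannot show how the fit behaves where spreads differ between groups or arrays are technical repeats. With 3 arrays a group, the smallest p that exact permutation of a single gene allows is 0.1. The array number limits the precision. Tables and plots were made in Python 3.11.15 (matplotlib 3.10.9, numpy 2.4.6, pandas 2.3.3).

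The 10 genes, the companion lists and the marker lists were chosen with earlier results of these data known. All 10 genes are named. Of each companion list the text names up to 3 genes with the smallest p among those passing with abemaciclib 120 and up to 2 with abemaciclib 36 or ribociclib, or up to 2 with the smallest p where none passed. For similar profiles, 3 genes each are named, leaving out the 10 genes and placeholder symbols. Alternatives were quantile re-normalization, centring arrays on their median, leaving out genes under the 30th percentile of mean signal (all 10 remained), other treatments of probe sets, no intensity trend, only the groups compared, the replicate letter as a block, an RNA quality covariate and leaving out each array.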

Additional observations from a re-analysis of the deposited data

How the results depend on the processing

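Of the 9 settings that kept all arrays, 6 changed at least 1 count of the 10 genes called. With only the groups compared in the fit, ribociclib against vehicle gave 3 and abemaciclib 36 against ribociclib 0. Abemaciclib 120 against ribociclib gave 5 after quantile re-normalization and 7 after centring arrays on their median. The RNA quality covariate gave 2 for abemaciclib 120 and 6 for ribociclib against vehicle and 2 for abemaciclib 120 against ribociclib. Leaving out dim genes gave 4 for each abemaciclib dose against vehicle, and quantile re-normalization 4 for abemaciclib 36. Leaving out each array in turn gave 1 to 4 genes for abemaciclib 120, 1 to 5 for abemaciclib 36 and 4 to 8 for ribociclib against vehicle, 2 to 4 for abemaciclib 120 and 1 to 3 for abemaciclib 36 against ribociclib, and 0 to 0 in the other 4 comparisons. With the replicate block, abemaciclib 120 against vehicle gave 4, and it changed no other count of the 10 genes. Same-lettered arrays of different groups deviated together little in the median, though single pairs varied. Their 45 pairs correlated at -0.31 to 0.59, with a median of 0.05, and 19 of them above 0.1. The median for pairs of different letters was -0.04. Only 7 of 18 arrays correlated best with their own letter, so the letters were not taken as pairs.

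Centring removes shifts of the gene median of 0.28 between abemaciclib 120 and ribociclib, 0.18 between the abemaciclib doses and 0.11 between abemaciclib 120 and vehicle, with -0.18, -0.11 and -0.14 for ribociclib, palbociclib 100 and palbociclib 30 against vehicle, and 0.11 between abemaciclib 36 and ribociclib. For abemaciclib 120 against ribociclib it moved the share of higher calls among all genes called to 24.6%, against 63.2% as deposited and 55.8% after quantile re-normalization. The corresponding shares were 44.0% and 53.3% (centred, then as deposited) for abemaciclib 120, 36.5% and 24.0% for abemaciclib 36 and 57.9% and 26.7% for ribociclib against vehicle, 40.6% and 63.5% between the abemaciclib doses and 29.1% and 40.7% for abemaciclib 36 against ribociclib.

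All-gene counts differed by over 1.5 times in some settings. With only the groups compared they were 309 (1079 in the full fit) between the abemaciclib doses, 1378 (3865) for abemaciclib 120 and 0 (54) for abemaciclib 36 against ribociclib, and 29 (531) for ribociclib against vehicle. With the RNA quality covariate they were 1596 (2560) for abemaciclib 120 against vehicle, 436 (1079) between its doses and 1408 (3865) against ribociclib, and centring gave 6987 there. Palbociclib 100 against 30 gave 1 gene with only the groups compared or with every probe set as a feature. Single arrays moved these counts too. Abemaciclib 36 against ribociclib (54) gave 9 without abemaciclib 36 array C, 962 without its array B and 1524 without ribociclib array A. Over arrays left out, ribociclib against vehicle (531) gave 120 to 1317, abemaciclib 36 against vehicle (296) 46 to 531, abemaciclib 120 against vehicle (2560) 1349 to 2497, against ribociclib (3865) 2118 to 4781, and between the abemaciclib doses (1079) 397 to 1344.

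Differences that changed sign were all uncalled, and the cause was not tested. Against vehicle, Adm ran from -0.042 to 0.21 and Maff from -0.089 to 0.55 with abemaciclib 120 over all alternatives. Adm ran from -0.094 to 0.11 with abemaciclib 36, and some genes also changed sign with palbociclib at either dose. The changes in comparisons without vehicle follow. Between the abemaciclib doses, Adm was -0.12 with centring, Plaur 0.0046 with the mean of probe sets and 0.30 with the RNA covariate, Timp1 -0.037 with quantile re-normalization and -0.048 with centring, and Gprc5a 0.15 with the RNA covariate. Leaving out each array gave -0.046 to 0.21 for Adm, -0.62 to 0.12 for Plaur, -0.13 to 0.42 for Timp1 and -0.18 to 0.61 for Tnfaip3. For palbociclib 100 against 30 it gave -0.27 to 0.44 for Maff, -0.0036 to 0.60 for Mmp10, -0.0033 to 0.57 for Epha2, -0.16 to 1.18 for Tnfaip3 and -0.17 to 0.98 for Tsc22d2, with the lowest value without palbociclib 100 array A in all but Mmp10. For abemaciclib 120 against ribociclib it gave -0.60 to 1.56 for Mmp10 and -0.39 to 0.35 for Epha2. Of the counts of companion genes passing with abemaciclib 120 against vehicle over all alternatives, 137 stayed within 1.5 times of the full fit and 58 did not.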
